A study of Homo sapiens with 6 samples.

Results

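The genes described here are 8 that make, clear or carry vitamin D (CYP24A1, CYP27B1, CYP2R1, CYP27A1, CYP3A4, GC, LRP2 and CUBN), out of 43260 genes whose sense transcripts matched a probe of the array. They were chosen by name for their known roles. Vitamin D is converted to its hormone and cleared again by a small set of cytochrome P450 enzymes, and it travels in blood and enters cells with the help of a few carriers. CYP2R1 and CYP27A1 are 25-hydroxylases of vitamin D, and CYP2R1 is the main one in liver. CYP27B1 is the 1α-hydroxylase that makes the active hormone 1α,25(OH)2D3, mainly in kidney, and CYP24A1 is the 24-hydroxylase that inactivates it. CYP24A1 is also the textbook target that the vitamin D receptor switches on when the hormone is present. CYP3A4, the major drug-metabolizing P450 of liver and intestine, hydroxylates vitamin D metabolites as well. GC encodes the vitamin D binding protein of plasma, and LRP2 (megalin) and CUBN (cubilin) are the receptors that take the bound vitamin up from the filtrate in kidney tubules.

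These 8 genes were examined on 6 single-color Agilent arrays of SKOV3, an established human ovarian cancer cell line grown in RPMI medium with heat-inactivated bovine serum. Of the arrays, 3 were labelled for 1α,25(OH)2D3 (72 h at 100 nmol/L, here VD-labelled arrays 1 to 3) and 3 for vehicle (ethanol for 72 h, vehicle-labelled arrays 1 to 3), and all 6 came from this 1 line. Spellings of the line vary among the labels, and the name SKOV3 follows the study. Nothing in the labels says that the 3 arrays of a label came from separate cultures, so the p-values below measure the spread between arrays, which may be technical. In RNA from whole cultures, fewer cells that make a transcript and less of it per cell cannot be told apart.

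The scanner files give probe names in place of gene symbols, and probes were therefore assigned by an exact sense match of their sequence to GENCODE release 44 transcripts. Of 125601 probes, 15 belonged to the 8 genes: 9 lie in the principal transcript of their gene and 6 in other annotated transcripts. No other annotated gene lies over a member probe, and the closest other gene shares at most 38 of 60 bases with one. All values are the deposited log2 values, and a probe was called detected on an array when a share of at least 0.5 of its spots were flagged well above background. The levels of different probes are not comparable with each other, because each probe binds with its own efficiency. The scanner software flagged 49.1% to 57.6% of all probes as well above background on an array, and 0 spots were saturated. The VD-labelled arrays 1 and 2 were on slide 1, and VD-labelled array 3 was on slide 2 with the 3 vehicle-labelled arrays. Cell type markers were read as well. Of 8 epithelial or ovarian carcinoma genes with a probe in their principal transcript, 7 were detected on all 6 arrays (KRT7, KRT8, EPCAM, PAX8, MUC16, FOLR1 and ERBB2), and CDH1 was detected on 1. By at least 1 probe of the same kind, each of the 4 leukocyte and 3 endothelial genes was detected on all 6 arrays, and so was SLC34A1 of kidney. Probes of the same gene could differ: other such probes of PTPRC were detected on no array, and another of PECAM1 on 2. COL1A1, COL1A2 and LUM, of fibroblasts, were detected on some arrays by such probes and DCN on none, while probes in other transcripts of COL1A1, COL1A2 and PDGFRB were detected on all 6. Detection of these markers therefore cannot tell an epithelial line from other cells, and the label of the line was not tested by it.

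The CYP24A1 probes carry the most variable signal of the 8 genes, and their sequences show where in the gene each one lies. The gene lies on the minus strand of chromosome 20 (hg38, chr20:54153446-54173986) and its principal transcript has 12 exons. One probe reads coding sequence of exon 10 (chr20:54157390-54157449), one reads the 3′ UTR in exon 12 (chr20:54154407-54154466), and one lies in intron 7 (chr20:54162581-54162640). The intron 7 probe covers the site of the study's reverse RT-PCR primer for lncBCAS1-4_1. It matches a short CYP24A1 transcript of 380 bases and 2 exons, of which the last runs from exon 7 into the intron. The exon 10 and intron 7 probes are shown because the first lies in coding sequence and the second only in sequence that splicing removes from the principal transcript. The intron 7 probe would also read unspliced CYP24A1 RNA, and which RNA gave its signal was not tested. For orientation, the boundary is shown with the first 2 intron bases in capitals, the GT that a spliced transcript removes. The intron 7 probe starts 77 bases into the intron.
CYP24A1 exon 10 probe A_33_P3369401: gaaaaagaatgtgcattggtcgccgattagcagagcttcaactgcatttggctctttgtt
CYP24A1 intron 7 probe OEV5_63001: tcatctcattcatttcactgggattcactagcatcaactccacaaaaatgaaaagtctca
CYP24A1 end of exon 7 and start of intron 7 (chr20:54162697-54162736, minus strand): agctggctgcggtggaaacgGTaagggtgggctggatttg

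CYP24A1 did not follow the labels. The exon 12 probe, A_23_P28815, was at 2.23, 13.84 and 3.30 on the VD-labelled arrays 1 to 3 and at 14.18, 4.75 and 14.34 on the vehicle-labelled ones. It was detected on 1 VD-labelled array (number 2) and 2 vehicle-labelled ones (numbers 1 and 3), and on none of the other 3. A name such as VD-labelled therefore states the label and no more, and each direction below compares labels. The 3 high arrays lay on both slides, 1 on slide 1 and 2 on slide 2.

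The other probes of CYP24A1 were high on the same 3 arrays. The exon 10 probe read 3.88, 14.64 and 4.46 on the VD-labelled arrays and 15.16, 8.24 and 15.25 on the vehicle-labelled ones. On this probe the vehicle-labelled array 2 stood between the others: it was well above background there, unlike the VD-labelled arrays 1 and 3. The intron 7 probe read 2.14, 9.99 and 2.15 under the first label and 10.32, 2.21 and 10.23 under the second, and it was detected on the 3 high arrays alone.

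The size of the CYP24A1 signal differed little among the high arrays and greatly beyond them. On the exon 12 probe the vehicle-labelled arrays 1 and 3 exceeded the VD-labelled array 2 by 1.27-fold and 1.42-fold. On the exon 10 probe the same 2 ratios were 1.43-fold and 1.53-fold, and on the intron 7 probe 1.25-fold and 1.18-fold. Against the vehicle-labelled array 2, the other array where exon 10 was measured above background, the 3 high arrays were 84.6-fold, 121-fold and 129-fold higher on that probe. These are ratios of single arrays and have no replicate error.

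**Figure D1:**
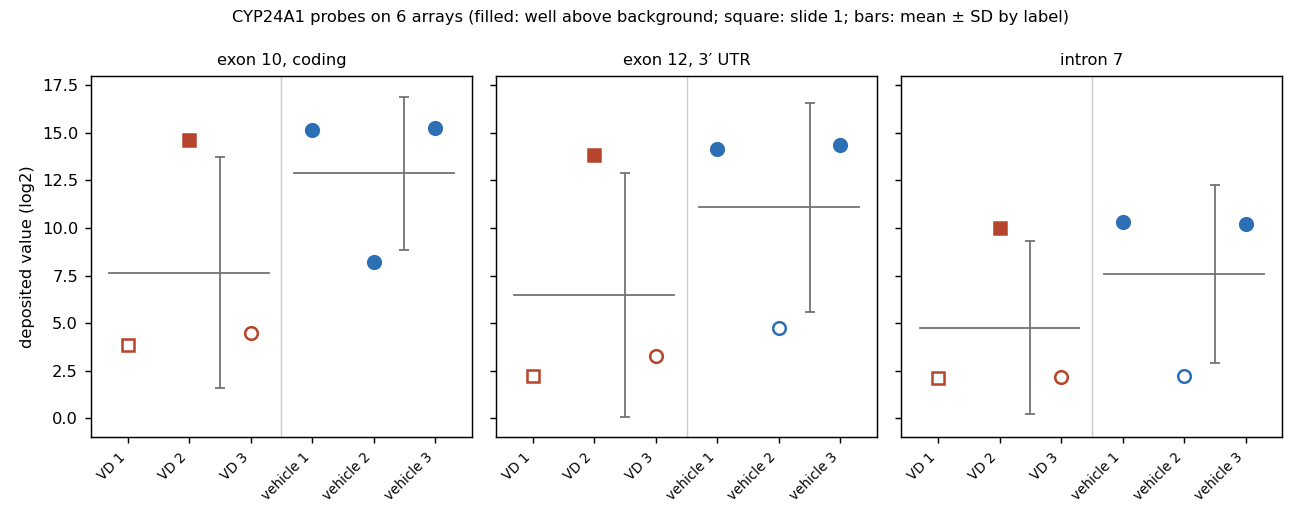
Deposited log2 values (y axis) of the exon 10, exon 12 and intron 7 probes of CYP24A1 on each of 6 arrays (x axis, VD for the label 1α,25(OH)2D3). Filled points are well above background, squares are slide 1, circles are slide 2, and grey lines are the mean ± SD of each label (n = 3); in every panel the VD-labelled array 2 and vehicle-labelled arrays 1 and 3 stand highest.

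Between the labels, the exon 10 probe averaged 7.66 ± 6.05 (SD, n = 3) for 1α,25(OH)2D3 and 12.88 ± 4.02 (SD, n = 3) for vehicle. The difference was -5.22 on the log2 scale with a standard error of 3.05, a 95% confidence interval of -12.34 to 1.89 and an adjusted p of 0.703 in limma. This is opposite in sign to the direction the study gives for CYP24A1. The study reports an increase from its arrays and also from RT-PCR in SKOV3 and OVCAR8 cells, which was not examined here. Of 63377 probes tested, this one had the widest range over the 6 arrays, 11.37 log2 units against a median range of 0.69, and also ranked 1 from the lowest in the difference between labels. It entered the test only because the vehicle label holds 3 arrays above background. With 1 array left out the difference ran from -8.71 to -3.33. It was -8.71 without VD-labelled array 2 (unadjusted p = 0.0043, adjusted p = 0.865 in limma) and -7.54 without vehicle-labelled array 2 (unadjusted p = 0.042, adjusted p = 0.908 in limma), the arrays that stood apart from the others of their label. It was -3.33 without VD-labelled array 1 (unadjusted p = 0.35 in limma), -3.62 without VD-labelled array 3, -4.08 without vehicle-labelled array 1 and -4.04 without vehicle-labelled array 3. With normexp background correction it was -3.71. With slide as a block it was -8.42, which compares VD-labelled array 3 alone with the 3 vehicle-labelled arrays. Slide 1 holds no vehicle array, so the high VD-labelled array 2 does not enter that difference. The exon 12 and intron 7 probes were not detected on a complete labelled group and were left out of the test.

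CYP27B1, which makes the hormone that CYP24A1 clears, had 3 probes on chromosome 12 (hg38, minus strand, chr12:57762334-57768986). The probe in the 3′ UTR of exon 9 was detected on all 6 arrays, at 4.02, 5.89 and 4.99 under the VD label and 4.62, 5.38 and 5.77 under the vehicle label. It was dim: on VD-labelled array 1 and vehicle-labelled array 1 it lay below the 5th percentile of detected probes (4.37 and 4.74). The labels overlapped, the difference was -0.29 with a standard error of 0.48 (adjusted p = 0.877 in limma), and it turned to 0.18 when the VD-labelled array 1 was left out.

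A further CYP27B1 probe lies in intron 2 of the principal transcript, at the first exon of a shorter coding transcript, and was also detected on every array. It read 11.98, 12.18 and 11.82 under the VD label and 11.59, 11.65 and 11.70 under the vehicle label. It was the 1 member probe of 8 tested whose labelled groups did not overlap, which held for 12.2% of all tested probes. The difference was 0.35 with a standard error of 0.16, a 95% confidence interval of -0.02 to 0.72 and an adjusted p of 0.702 in limma, and it stayed between 0.18 and 0.44 under every alternative run. The last CYP27B1 probe, in intron 1, was detected on the VD-labelled array 1 alone, at 4.61, and was not tested.

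The 3 probes of CYP2R1 were detected on all 6 arrays and ranged over 0.75, 0.23 and 1.02 log2 units. Its principal transcript has 5 exons on the minus strand of chromosome 11 (hg38, chr11:14877440-14892231), and the probe in exon 5, which covers the end of the coding sequence and the start of the 3′ UTR, ranged over 0.75. It read 7.82, 7.62 and 7.68 under the VD label and 7.70, 7.93 and 7.18 under the vehicle label, a difference of 0.10 with a 95% confidence interval of -0.40 to 0.60 (adjusted p = 0.903 in limma). This difference turned to -0.11 without the vehicle-labelled array 3, the lowest of the 6. A probe in intron 1, which matches a transcript annotated for nonsense-mediated decay, stayed between 9.73 and 9.96 on the 6 arrays and differed by 0.09 between labels (95% confidence interval -0.24 to 0.42, adjusted p = 0.866 in limma).

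The remaining CYP2R1 probe spans a splice junction of a short noncoding transcript inside intron 1. It read 4.54, 4.22 and 5.04 under the VD label and 4.69, 5.24 and 4.88 under the vehicle label. On VD-labelled array 2 and vehicle-labelled array 1 it lay below the 5th percentile of detected probes (4.62 and 4.74). The difference of -0.34 (standard error 0.25, adjusted p = 0.727 in limma) became 0.10 with slide as a block, between VD-labelled array 3 alone and the vehicle-labelled arrays. CYP27A1, the mitochondrial 25-hydroxylase and sterol 27-hydroxylase, was detected on no array. Its probe in exon 9 lay at 2.02, 2.16 and 3.06 under the VD label and at 2.02, 2.07 and 3.24 under the vehicle label, all within background.

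CYP3A4 was lower on slide 1. Its probe lies in the 3′ UTR of exon 13 on chromosome 7 (hg38, minus strand, chr7:99756981-99757040) and was detected on all 6 arrays. It read 6.25 and 6.40 on the 2 arrays of slide 1, both VD-labelled, and 8.47 on the third array of that label. The vehicle arrays were at 8.32, 8.48 and 8.46, so that the 4 arrays of slide 2 lay within a narrow band and the 2 of slide 1 lay below it.

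By label the CYP3A4 difference was -1.38 with a standard error of 0.54 (unadjusted p = 0.035, adjusted p = 0.702 in limma). With slide as a block it was 0.05, which is also the difference within slide 2, between 1 VD-labelled and 3 vehicle-labelled arrays. Slide 1 holds no vehicle array and gives no value of its own. Both slide 1 arrays lay more than 1 log2 unit below all slide 2 arrays for 164 tested probes (0.259%) and above them for 88 (0.139%). CYP3A4 was the only member probe tested in either set, and the part of slide in this difference was not tested further. The unadjusted call was lost when any 1 of the other 5 arrays was left out and held without VD-labelled array 3, at -2.10. CYP3A5 and CYP3A7 are close relatives of CYP3A4, but the gene closest in sequence to this probe other than CYP3A4 shared 20 identical bases with it.

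The carriers were dim or below background. LRP2, with 79 exons on the minus strand of chromosome 2 (hg38, chr2:169127109-169362534), was read by a probe in the 3′ UTR of its last exon. Values were 5.45, 5.99 and 4.97 under the VD label and 4.21, 5.24 and 5.10 under the vehicle label, where array 1 was not well above background. The groups overlapped, and the difference was 0.62 with a standard error of 0.35 (95% confidence interval -0.18 to 1.43, adjusted p = 0.702 in limma). The probe entered the test only through the VD label, where it was higher. The difference was 0.12 with slide as a block, 0.19 with normexp correction, 0.30 without vehicle-labelled array 1 and 0.36 without VD-labelled array 2.

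CUBN, the partner of megalin in uptake, was detected on no array by either of its probes. Its exon 67 probe ranged from 2.02 to 2.45 and its intron probe, in a transcript with a retained intron, from 2.73 to 3.19. GC, made by liver, was likewise detected on no array and ranged from 2.01 to 2.24, on a probe that joins exons 11 and 12. By probes in their principal transcripts, ALB and TTR, further genes of liver, were detected on no array, APOA1 on 1 and the kidney gene SLC34A1 on all 6. A probe in another transcript of ALB and the probe in another transcript of TTR were detected on all 6. A further ALB probe in another transcript was detected on no array.

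**Figure D2:**
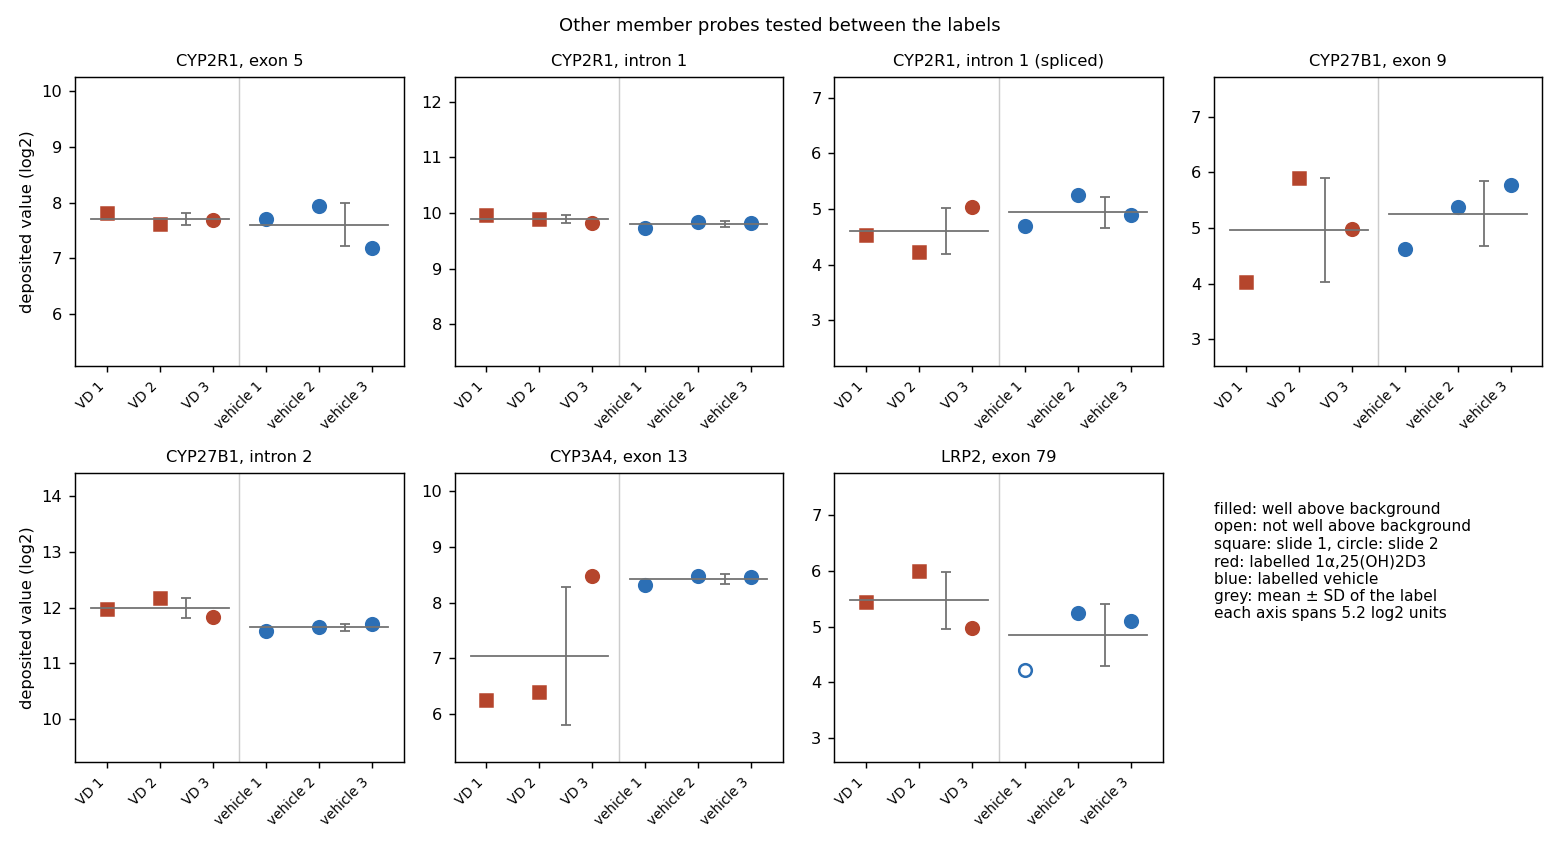
Deposited log2 values (y axis, each spanning 5.2 log2 units) on each of 6 arrays (x axis) for the 7 tested probes other than CYP24A1, with squares for slide 1, circles for slide 2, filled points well above background and the mean ± SD of each label in grey (n = 3). CYP3A4 is below 6.5 on both slide 1 arrays and between 8.32 and 8.48 on slide 2. The CYP2R1 probes in exon 5 and in uninterrupted sequence of intron 1 stay within 0.75 log2 units, and the one across a splice junction ranges over 1.02.

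Across the 8 genes, 8 probes of 5 genes were tested between the labels and 7 probes were not. Of those tested, 4 had a higher mean and 4 a lower mean under the VD label, with a median difference of -0.10 against -0.0037 over all tested probes. The threshold of the methods (a log2 difference beyond 2 in size and adjusted p under 0.05) was met by 0 member probes and by 0% of all tested probes in limma. A difference beyond 2-fold together with unadjusted p under 0.05 was found for 1 of the 8, CYP3A4, beside 0.745% of all tested probes (0.259% in the lower direction). Adjusted p-values of the 8 ran from 0.702 to 0.903, and 1 of the 8 had an unadjusted p under 0.05 at any fold, beside 6.77% of all tested probes.

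**Figure D3:**
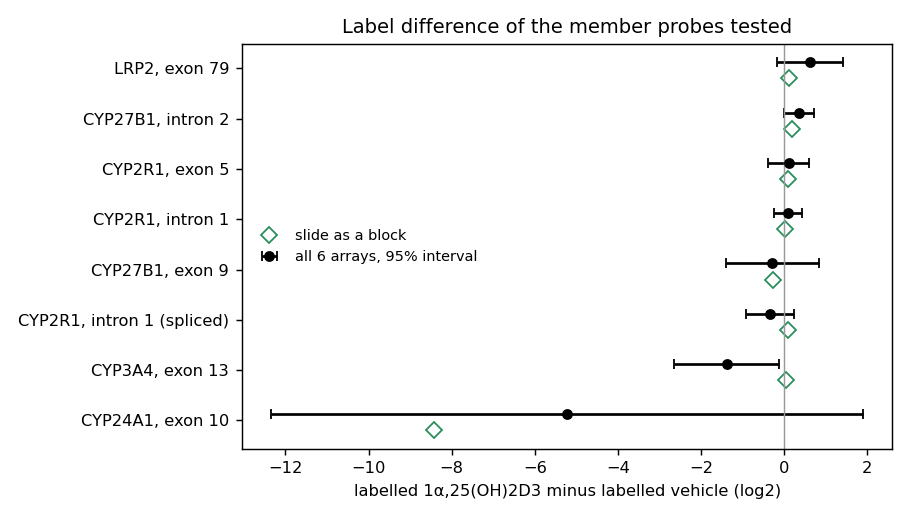
Difference between labels (x axis, log2, 1α,25(OH)2D3 minus vehicle) for the 8 tested member probes (y axis), as black points with the 95% confidence interval and as green diamonds with slide as a block. CYP24A1 has the widest interval, from -12.34 to 1.89, and CYP3A4 moves from -1.38 to 0.05 with slide as a block. The diamonds compare VD-labelled array 3 alone with the vehicle-labelled arrays, as slide 1 holds no vehicle array.

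The other tested member probes were also set beside CYP24A1 array by array. When the 3 arrays where A_23_P28815 was high were set beside the 3 where it was low, the values of 0 of the 7 other tested probes kept apart, leaving out the exon 10 probe of CYP24A1 itself, and over all tested probes 6.17% kept apart, so a count of 0 among 7 is near that background. The CYP27B1 probe in exon 9, for example, was at 5.89, 4.62 and 5.77 on the high arrays and at 4.02, 4.99 and 5.38 on the low ones. LRP2 was at 5.99, 4.21 and 5.10 on the high arrays and at 5.45, 4.97 and 5.24 on the low ones. This arrangement uses measured values, so it is given as a description with no test.

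The pattern of A_23_P28815 was matched most closely by its own gene. Each probe was scaled from 0 on its lowest to 1 on its highest array, and the mean absolute difference from A_23_P28815 over the 6 arrays was taken for 1857 named probes that were detected on at least 3 arrays and ranged over at least 2 log2 units. The exon 10 and intron 7 probes of CYP24A1 differed by 0.038 and 0.052. The next 5 genes were GEM (0.059), which encodes a small GTP-binding protein, FAM20C (0.067), a kinase of secreted proteins, LINC03049 (0.080), ENSG00000260777 (0.089) and ENSG00000287346 (0.091), each through 1 probe. GEM read 6.98, 9.90 and 6.57 under the VD label and 10.01, 7.60 and 9.90 under the vehicle label, and it was detected on all 6 arrays. So were FAM20C and ENSG00000287346. The LINC03049 and ENSG00000260777 probes, like the intron 7 probe of CYP24A1, were detected on the 3 high arrays alone and passed the filter only through them.

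The enzymes work with partners, and 21 other genes of the pathway were examined in the same fit. Of these, 20 had a probe (AMN had none), and 32 of their 55 probes, from 17 genes, were tested. Of these probes, 16 had a higher mean and 16 a lower mean under the VD label, with a median difference of 0.0034. Of the 32, 25 were well above background on all 6 arrays. The others entered the test through 1 label alone, and these counts include them. Only some of those are named below, each higher under the label through which it entered. None met the threshold of the methods, and 1 of the 32 met the unadjusted one, beside 0.745% of all tested probes.

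That probe lies in intron 2 of FDXR, which encodes the ferredoxin reductase that passes electrons to the mitochondrial P450s. It read 3.88, 4.85 and 6.09 under the VD label and 6.61, 6.17 and 6.36 under the vehicle label, a difference of -1.45 with a standard error of 0.49 (unadjusted p = 0.020, adjusted p = 0.702 in limma). It was well above background on 2 VD-labelled and 3 vehicle-labelled arrays and so entered the test only through the vehicle label, where it was higher, and it was not tested under the filter on all 6 arrays. As with CYP3A4, the 2 lowest arrays were those of slide 1. The other 2 probes of FDXR differed by 0.03 and -0.11. Among the 12 tested probes of electron donors (FDX1, FDX2, FDXR, POR and CYB5A) 5 had a higher and 7 a lower mean.

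VDR, RXRA and DHCR7 were each detected on every array by a probe in their principal transcript. A further RXRA probe, in a transcript with a retained intron, was detected on no array. VDR, the vitamin D receptor, read 7.43, 7.24 and 7.24 under the VD label and 7.03, 7.26 and 6.91 under the vehicle label, a difference of 0.23 with a standard error of 0.16 (adjusted p = 0.722 in limma). RXRA, its partner on DNA, differed by 0.22 (adjusted p = 0.786 in limma). DHCR7, which converts the vitamin D precursor to cholesterol, differed by 0.58 with a standard error of 0.31 (adjusted p = 0.702 in limma), and its lowest array was that labelled vehicle replicate 2, at 10.47.

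Of the other P450s that act on vitamin D, CYP2J2 differed by 0.33, CYP3A7 by -0.25 and CYP3A5 by -0.52, each on 1 tested probe. The tested CYP3A5 probe, in exon 1, entered the test only through the vehicle label, where it was higher. Another probe in the principal transcript of CYP3A5, and another in that of CYP3A7, were detected on no array. The 3 tested probes of CYP11A1, the side-chain cleavage enzyme, differed by -0.04 to 0.53. SULT2A1, a sulfotransferase, differed by 0.29 and entered the test only through the VD label, where it was higher. LRPAP1, the chaperone of megalin, differed by -0.10. The tested probes of DAB2, the endocytic adaptor of megalin, lay between -0.22 and 0.11, and those of FGFR1 between -0.28 and 0.39. All tested DAB2 probes lie in transcripts other than the principal one. The DAB2 probe in the principal transcript was detected on no array and was not tested. The DAB2 probe at 0.11 also entered only through the VD label, where it was higher. The hormone FGF23 and its co-receptor KL, which set CYP24A1 and CYP27B1 in kidney, were detected on no array.

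**Figure D4:**
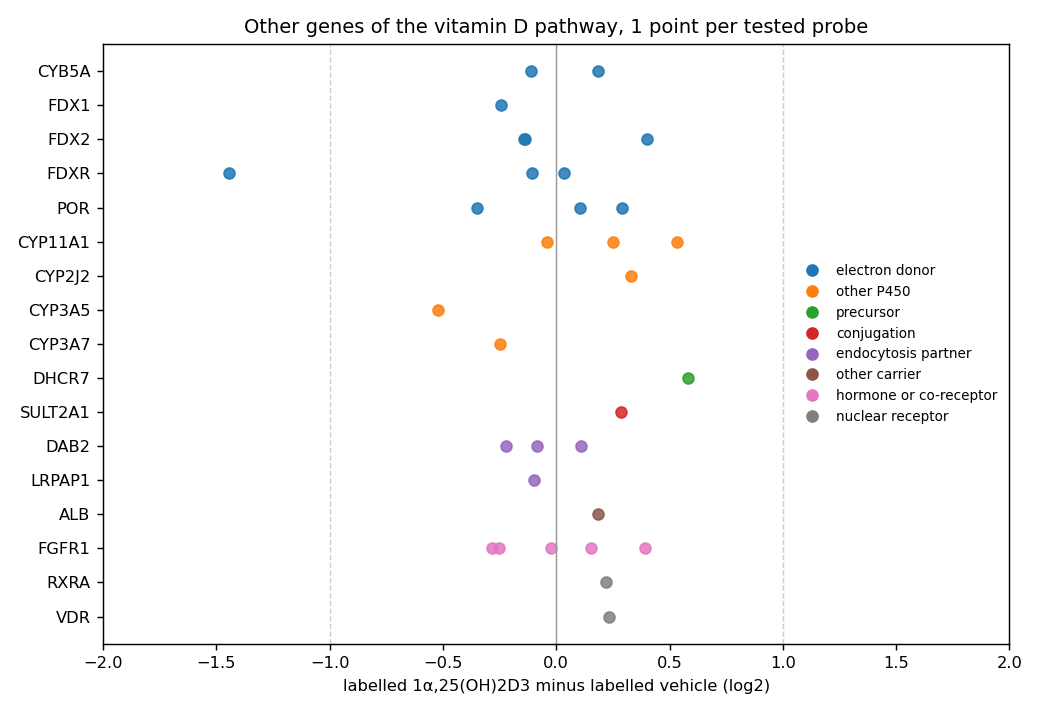
Difference between labels (x axis, log2, 1α,25(OH)2D3 minus vehicle) of the 32 tested probes of 17 other vitamin D pathway genes (y axis), 1 point per probe and 1 color per role, with dashed lines at a fold change of 2. One FDXR probe lies beyond a line, at -1.45, and the other 31 lie within.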

How the data were processed

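The members, gene lists and tests were chosen with earlier results of these data known. The authors scanned single-color arrays with Agilent Feature Extraction 10.7.1.1 and deposited the intensity of each spot on a linear scale, corrected for background by the software. They also deposited a table of log2 values, 1 per probe and array, which was used here for every value. Its column medians are all 4.78, its sorted columns differ by at most 0.038 and its rank correlation with the scanner intensity of the same array was at least 0.9998, so it appears quantile normalized between arrays. The labels name the mirVana kit and the methods TRIzol.

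Probes were assigned by exact match to GENCODE release 44 (90604 of 125601 matched), and places in hg38 come from that match, since the header names hg19. All member probes that do not cross a splice junction had 1 exact place in hg38. The 63377 probes that were above background on every array of a label were tested with limma 3.58.1 in R 4.3.3, without a covariate, with Benjamini-Hochberg adjustment of p-values over all of them. The fit was tested on simulated data. Named genes are all probes of the 8 genes, the pathway list, and the 5 genes most like A_23_P28815. No pairing by replicate number was seen in correlations of deviations from the label means. They were 0.12, 0.09 and -0.03 for arrays of the same number and -0.25 to 0.19 for the others. With 3 arrays a label, this check cannot exclude a pairing. Alternatives were scanner signals scaled to the 75th percentile, normexp correction (offset 50), no filter or a filter on all 6 arrays, a block for replicate or slide, the methods' t-test, and each array left out. With slide as a block, each difference rests on VD-labelled array 3 against the vehicle-labelled arrays, as slide 1 holds no vehicle array. The number of arrays limits the precision.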

Additional observations from a re-analysis of the deposited data

How the results depend on the processing

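The count of member probes past a fold change of 2 with an unadjusted p under 0.05, 1 as reported, was 0 without a filter, with slide as a block and with the methods' t-test, and 0 to 3 with 1 array left out. The 3 were those of CYP24A1, lower on the VD-labelled arrays without the vehicle-labelled array 2, when 10 member probes were tested. Leaving out that low array let 2 of them, in exon 12 and intron 7, enter through the remaining vehicle-labelled arrays, where they are high, so their direction follows from the array left out. The same count for the other pathway genes, also 1, was 0 with normexp correction, the filter on all 6 arrays, slide as a block and the methods' t-test, and 0 to 2 with 1 array left out. Over all tested probes the count was 472 (308 higher, 164 lower). It was 34 with normexp correction (15 higher, 19 lower), 1612 without a filter (872 higher, 740 lower), 157 with the filter on all 6 arrays, 808 with slide as a block (402 higher, 406 lower), 139 with the methods' t-test, and 329 to 1526 with 1 array left out, the highest without VD-labelled array 3. At the threshold of the methods it was 0 in limma, where 4288 probes had an unadjusted p under 0.05 at any fold, and 0 to 4 with 1 array left out, the 4 without vehicle-labelled array 1. The replicate block gave 582 probes over all tested and changed no other call. The cause of these changes was not tested.

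Directions turned for CYP3A4 (0.051) and the spliced CYP2R1 probe (0.10) with slide as a block, for CYP27B1 in exon 9 (0.18) without VD-labelled array 1, and for CYP2R1 in exon 5 (-0.11) without vehicle-labelled array 3. The CYP3A4 difference ranged from -2.10 to -0.99 with 1 array left out, that of CYP27B1 in exon 9 from -0.75 to 0.18, and that of CYP2R1 in exon 5 from -0.11 to 0.27. Genes detected on no array have no measured direction, and 3 arrays a label with an uneven CYP24A1 signal leave its interval wide.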
